A study of Mus musculus with 2 samples.

Results

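The constitutive proteasome subunits of the mouse were followed in CH12.LX cells as the protein-coding Ensembl genes whose GENCODE symbol begins with Psma, Psmb, Psmc, Psmd, Psme, Psmf or Psmg, leaving out the 5 interferon-inducible genes Psmb8, Psmb9, Psmb10, Psme1 and Psme2. The rule found 45 genes among 21474 protein-coding genes and 43346 Ensembl entries. Of these, 31 encode structural subunits of the core and regulatory particles, 7 encode assembly chaperones, 2 encode other activators and 1 encodes an inhibitor. Symbols alone brought in 4 further genes. Psma8 and Psmb11 encode core subunits restricted to the testis and to the thymic cortex, Psmc3ip encodes a meiotic recombination factor that is no proteasome subunit, and the role of Psme2b was not assigned.

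CH12.LX is an immortalized mouse B cell lymphoma line of the strain B10.H-2aH-4bp/Wts, labelled female and of unknown age, with no treatment named in the labels. Its polyadenylated RNA was sequenced in 2 single-end libraries, given as biological replicates 1 and 2 from separate biosamples. Both libraries belong to 1 group, so levels are described and no conditions were compared. They held 22996547 and 25715408 expected counts, which are estimated read counts per gene, and levels are given as TPM, a unit that corrects for transcript length and library depth. All 9 B cell markers were detected at 1 TPM or more in both libraries, with a summed level of 1999 TPM in replicate 1 and 2122 TPM in replicate 2. Against the label, Xist was at 0 TPM in both libraries while the Y-linked Eif2s3y stood at 63.7 and 50.5 TPM, so the labelled sex was not used. Markers of other cells were low in sum. The 5 T cell markers reached 3.89 and 5.34 TPM, and 2 of them were detected. The 4 myeloid markers reached 4.13 and 3.33 TPM, and 2 of them were detected. The 5 germ cell markers reached 0.86 and 0.91 TPM, and no erythroid marker of 3 was detected. In bulk RNA, fewer cells of a type and less RNA per cell cannot be told apart.

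The proteasome degrades proteins tagged with ubiquitin. Its core particle is a barrel of stacked rings, in which outer alpha rings form the gate and inner beta rings carry the peptidase sites. A regulatory particle, built from a lid and a base that includes a ring of ATPases, binds, deubiquitinates, unfolds and feeds in substrates. In cells of the immune system some catalytic beta subunits can be replaced by interferon-inducible counterparts, which alters the peptides made for MHC class I. The transcription factor Nfe2l1 is known to raise proteasome genes together when the proteasome is impaired.

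The promoter sequences of the members are shown first, since the sequence before their starts is a property the symbols did not select. RefSeq windows of 300 bases on GRCm38.p6, with 250 bases before and 50 after a gene's start, were matched by symbol to 37 members in 39 windows, and 8 members had no entry (Psma8, Psmb1, Psmb2, Psmb7, Psmc3, Psmd3, Psmd7 and Psmg2). The 4 stretches below are from the highest-expressed gene of the alpha ring, the beta ring, the ATPases and the lid that held a searched motif and had at least 150 of the 250 bases before the start free of annotated exons. For the alpha ring this rule passed over Psma4, Psma7 and Psma2. Each is printed 5′ to 3′ on the gene's strand, and capitals mark matches to any of the 5 motifs searched on both strands, which may share letters: CCGGAA (the ETS core), CCAAT, TGACNNNGC (the core of the antioxidant response element), GGGCGG (the GC box) and TATAAA.
Psma1, chr7:114276119-114276366, - strand: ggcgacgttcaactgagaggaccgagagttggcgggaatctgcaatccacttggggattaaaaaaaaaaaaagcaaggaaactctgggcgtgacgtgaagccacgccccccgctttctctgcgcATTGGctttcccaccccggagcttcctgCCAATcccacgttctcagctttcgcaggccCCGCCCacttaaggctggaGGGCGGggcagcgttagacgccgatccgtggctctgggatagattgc
Psmb6, chr11:70525107-70525356, + strand: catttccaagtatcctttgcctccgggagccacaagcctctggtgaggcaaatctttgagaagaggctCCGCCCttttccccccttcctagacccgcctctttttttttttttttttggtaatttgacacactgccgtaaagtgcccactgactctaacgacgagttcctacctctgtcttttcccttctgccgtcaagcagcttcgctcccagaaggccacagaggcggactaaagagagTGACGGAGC
Psmc1, chr12:100109952-100110153, + strand: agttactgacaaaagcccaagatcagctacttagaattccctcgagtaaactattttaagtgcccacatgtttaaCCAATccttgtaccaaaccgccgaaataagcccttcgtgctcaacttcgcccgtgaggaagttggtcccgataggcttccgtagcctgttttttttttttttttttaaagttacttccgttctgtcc
Psmd8, chr7:29180702-29180923, - strand: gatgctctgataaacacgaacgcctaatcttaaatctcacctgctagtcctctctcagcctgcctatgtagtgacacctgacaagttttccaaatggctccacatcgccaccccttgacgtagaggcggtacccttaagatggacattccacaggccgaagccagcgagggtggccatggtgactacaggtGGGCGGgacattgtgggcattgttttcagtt

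The ETS core was more frequent in the windows of the members than in any of the background sets. It was found in 22 of 39 member windows (56.4%), against 14.9% of all 32851 windows, 19.3% of protein-coding windows, 29.8% of windows of protein-coding genes at 1 TPM or more and 34.7% at 100 TPM or more in both libraries. By gene it was found in 21 of 37 members (56.8%), against 34.8% of 8236 protein-coding genes at 1 TPM or more and 40.0% of 1049 at 100 TPM or more. Among structural genes it was found in 14 of 25, namely 3 of 7 alpha ring genes, 1 of 4 beta ring genes, 4 of 5 ATPase genes, 2 of 3 non-ATPase base genes and 4 of 6 lid genes. In 16 of the 21 genes a match lay within 60 bases of the start, and 9 of the 21 held more than 1 match. Among the 9, the matches of Psmd4 are overlapping letters read on both strands, and those of Psmc2 lie in different windows. Neither of these shares was counted in the background sets. The match nearest the start of each structural gene is printed here with 10 bases on each side, on the strand that reads CCGGAA, with the motif in capitals. These 14 stretches were chosen after the shares had been seen.
Psma2, chr13:14613253-14613278, - strand: ccatctttacCCGGAAagtcggaaca
Psma5, chr3:108256762-108256787, - strand: tcggtggcagCCGGAActaggtttgc
Psma6, chr12:55398813-55398838, + strand: cgccggtgctCCGGAAgcagtagcca
Psmb4, chr3:94886940-94886965, + strand: gctagcgtcaCCGGAAacggaagtgg
Psmc1, chr12:100110165-100110190, - strand: atcgccaccgCCGGAAgtgcatccac
Psmc2, chr5:21786714-21786739, - strand: ctcttccccaCCGGAAgtagctccgc
Psmc5, chr11:106256080-106256105, + strand: gcccattgacCCGGAActgttctcgg
Psmc6, chr14:45329714-45329739, + strand: ggcgggccagCCGGAAggggcggagc
Psmd11, chr11:80428609-80428634, - strand: gccgccgacgCCGGAAacacacaccc
Psmd12, chr11:107479502-107479527, - strand: gtcactcgcaCCGGAAgtcgcccgct
Psmd13, chr7:140882378-140882403, + strand: gcccgcggtgCCGGAAgtgagcgagc
Psmd2, chr16:20651617-20651642, - strand: gtcctccagaCCGGAAgcgccctgcg
Psmd4, chr3:95042724-95042749, - strand: tacagctgttCCGGAAgctgctgcga
Psmd6, chr14:14120975-14121000, - strand: agagacgcgaCCGGAAgtcagactgg

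CCAAT and TGACNNNGC were found at shares near those of the background sets. CCAAT was found in 35.9% of member windows and 37.8% of protein-coding windows, and TGACNNNGC in 15.4% and 13.1%. The genes with TGACNNNGC were Psmb5, Psmb6, Psmc6, Psmd9, Psmd12 and Psme4, so 2 of the 3 constitutive catalytic subunit genes with a peptidase site were among them, while Psmb7 had no entry. GGGCGG was found in 51.3% of member windows, against 48.1% of protein-coding windows and 63.0% of those at 1 TPM or more. By gene it was found in 54.1% of members, against 69.6% at 1 TPM or more and 70% at 100 TPM or more, so it was less frequent in the members than in the expressed sets. TATAAA was found in 7.7%, against 12% and 6.6%, and in 3 genes, Psmb4, Psmd1 and Psmd6. The median GC content of member windows was 57.3%, against 57% for protein-coding genes and 60.7% for those at 1 TPM or more. A match describes letters and is not a binding site, and the sets were not tested against each other.

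**Figure D1:**
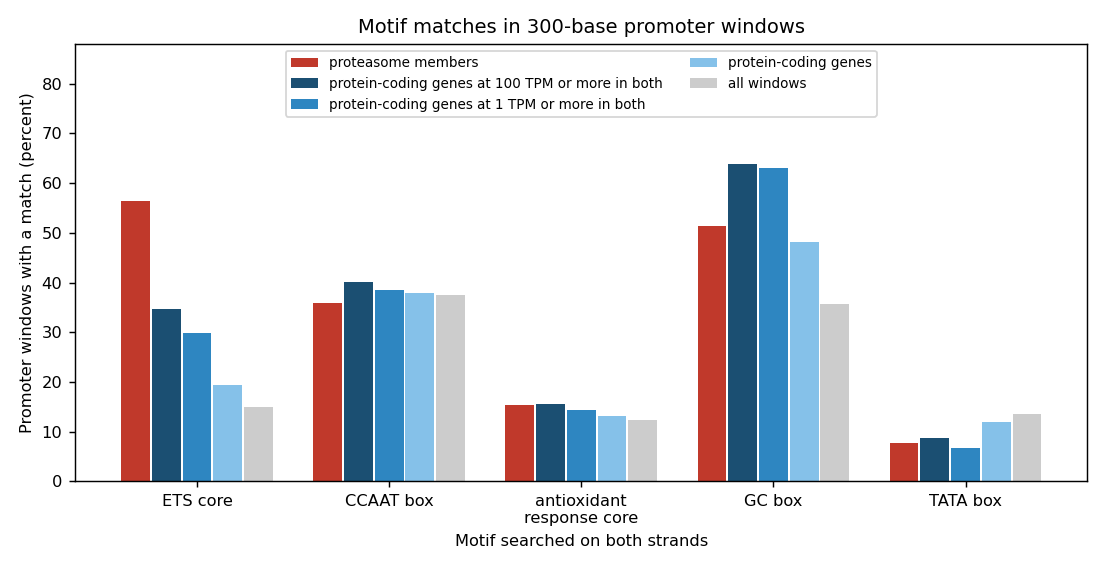
Percent of 300-base RefSeq promoter windows (y axis) that hold each of 5 motifs (x axis) on either strand, for the 39 windows of proteasome members and for 4 background sets of mouse genes. The ETS core was found in 56.4% of member windows and in 34.7% of windows of protein-coding genes at 100 TPM or more, and the GC box in 51.3% and 63.8%.

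Nearly all members were expressed. At 1 TPM or more in both libraries, 43 of 45 members (95.6%) were detected, against 48.0% of protein-coding genes. All 31 structural subunit genes were at or above the 94th percentile of protein-coding genes by mean TPM. Their level ran from 111.2 to 644.3 TPM in replicate 1, with a median of 273.5, and from 110.1 to 573.5 TPM in replicate 2, with a median of 234.7, whereas detected protein-coding genes had medians of 21.1 and 20.7 TPM. The highest structural gene was thus 5.8-fold over the lowest in replicate 1 and 5.21-fold in replicate 2, and their coefficients of variation were 38.4% and 36.8%. Together the 45 genes held 0.8697% and 0.8097% of all counts. The order of the 31 levels was alike in both libraries, with a Spearman rho of 0.91 across genes, which share transcript lengths and base composition between the libraries and are not independent replicates. Between 2776 and 15736 counts per library stood behind each structural gene.

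**Figure D2:**
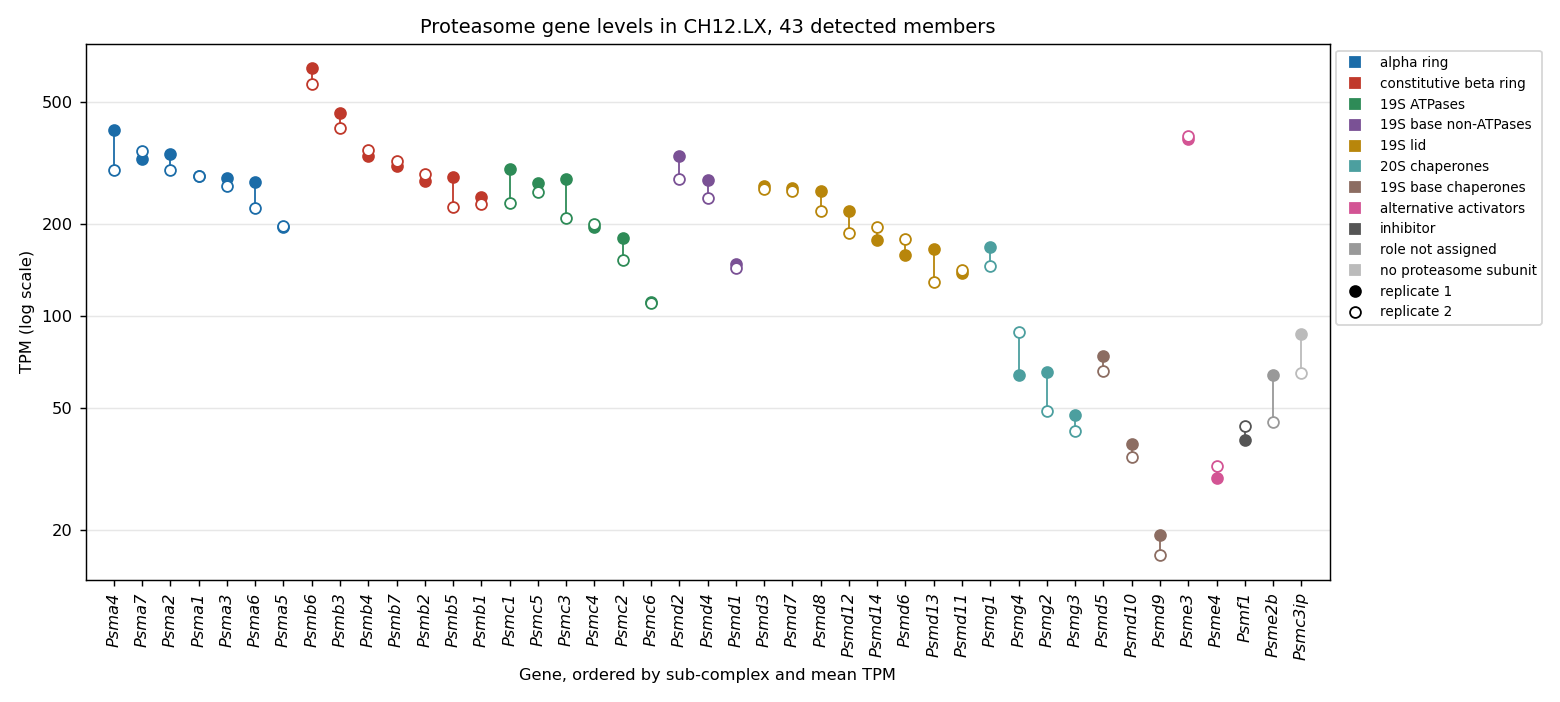
Level in TPM (y axis, log scale) of the 43 detected members, grouped by sub-complex and ordered by mean TPM (x axis), with replicate 1 as filled and replicate 2 as open circles. The 31 structural genes lie between 110.1 and 644.3 TPM, and of the 7 assembly chaperone genes only Psmg1 lies above 100 TPM in both libraries.

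The 7 alpha ring genes, whose products form the gate of the core and dock the regulatory particles, were close to one another, with medians of 287.6 and 287.8 TPM. Psma4 stood at 405 TPM in replicate 1 and 299.5 TPM in replicate 2, Psma7 at 325 and 345 TPM, Psma2 at 338 and 299 TPM and Psma1 at 288 and 288 TPM. Psma3 followed with 282 and 267 TPM, Psma6 with 274 and 226 TPM and Psma5 with 196 and 197 TPM. Psma5 was the lowest of the ring in both libraries. Psma4 was the highest in replicate 1 but not in replicate 2, where Psma7 was higher, so the top of the ring was not separated beyond the spread. The ratio of highest to lowest within the ring was 2.07 and 1.76.

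The 7 constitutive beta ring genes had the highest medians of any sub-complex, 309.1 and 320.1 TPM. These were only 1.07-fold and 1.11-fold over the medians of the alpha ring. Psmb6, the caspase-like catalytic subunit (chr11:70525367-70527858), led all 45 members with 644 TPM in replicate 1 and 574 TPM in replicate 2. Psmb3, a subunit with no peptidase activity, was the next with 460.0 and 412 TPM, and Psmb6 was 1.4-fold and 1.39-fold over it. The other catalytic subunits were lower: Psmb7, the trypsin-like one, stood at 309 and 320.1 TPM, and Psmb5, the chymotrypsin-like one and the main target of proteasome inhibitors, at 285 and 227 TPM. Psmb6 was 2.26-fold and 2.53-fold over Psmb5, and 2.08-fold and 1.79-fold over Psmb7. The remaining subunits have no peptidase activity and ranged from Psmb4 with 332 and 349.8 TPM through Psmb2 with 276 and 291 TPM to Psmb1 with 245 and 233 TPM. The catalytic subunits of the same ring thus had unequal mRNA levels in both libraries.

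The 6 ATPase genes, which encode the unfolding ring of the regulatory particle, had medians of 233.8 and 204.7 TPM. Psmc1 stood at 302 and 235 TPM, Psmc3 at 280.0 and 209.8 TPM and Psmc5 at 272 and 253 TPM. Psmc4 stood at 195 and 199.5 TPM and Psmc2 at 179.7 and 153 TPM. Psmc6 was the lowest of all 31 structural genes in both libraries, with 111 and 110.1 TPM, and Psmc1 was 2.72-fold and 2.13-fold over it. The products stand in the ring in equal numbers. Psmc6 lay below the other ATPase genes in each library, with no overlap, while Psmc1, Psmc3 and Psmc5 changed places at the top.

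The 3 non-ATPase genes of the base included Psmd2, a scaffold that docks ubiquitin-like domains, with 333 and 281 TPM. Psmd4, a ubiquitin receptor, stood at 279 and 243 TPM, and Psmd1, the other large scaffold, at 148 and 144 TPM. Psmd1 was the lowest of the base in both libraries and did not overlap the other 2. The base also holds a ubiquitin receptor named otherwise, Adrm1, which stood at 94.7 and 112 TPM.

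The 8 lid genes spanned a narrow range, with medians of 198.8 and 191.1 TPM and ratios of highest to lowest of 1.93 and 2.01. Psmd14, the deubiquitinase that removes ubiquitin chains from substrates, stood at 177 and 195 TPM, and Psmd7, the partner with which it pairs, at 263 and 255 TPM. The highest lid gene in both libraries was Psmd3 with 267 and 260.1 TPM, followed closely by Psmd7. Psmd8 stood at 256 and 220.0 TPM, Psmd12 at 221 and 187 TPM, Psmd6 at 159 and 179 TPM, Psmd13 at 166 and 129 TPM and Psmd11 at 138 and 142 TPM. The small lid subunit Sem1, which carries another name, stood at 139 and 119.9 TPM, at the low end of the lid. The median of the alpha ring was 1.45-fold and 1.51-fold over that of the lid and 1.23-fold and 1.41-fold over that of the ATPases, an order that both libraries shared but that 2 libraries cannot test.

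The assembly chaperones, which help build the particles and leave before they mature, were lower than what they build. The median of the 31 structural genes was 4.24-fold over that of the 7 chaperone genes in replicate 1 and 4.8-fold in replicate 2. Of the core chaperones, Psmg1 stood at 169 and 146 TPM, while its dimer partner Psmg2 stood at 65.7 and 48.9 TPM. The other pair, Psmg3 and Psmg4, stood at 47.6 and 42.1 TPM and at 64.4 and 88.7 TPM. Psmg1 was thus the highest in both libraries, and the only one of the 4 that overlapped the range of the structural genes. Pomp, the core maturation factor that carries another name, stood at 267 and 275 TPM, 1.58-fold and 1.89-fold over Psmg1 and inside the range of the subunits. The 3 chaperones of the base were lower, with Psmd5 at 74.1 and 66.5 TPM, Psmd10 (gankyrin) at 38.2 and 34.8 TPM and Psmd9 at 19.4 and 16.6 TPM. Psmd9 was the lowest detected member in both libraries.

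The alternative activators lay far apart. Psme3, which encodes the nuclear PA28 gamma ring, stood at 378 and 388 TPM (chr11:101316213-101323537), above the median of each of the 5 structural sub-complexes in both libraries. Psme4, which encodes the large single-chain activator PA200, stood at 29.7 and 32.3 TPM. Psme3 was 12.7-fold and 12-fold over Psme4, with no overlap. The interferon-inducible PA28 genes Psme1 and Psme2 were higher still, at 492 and 544 TPM and at 511 and 563 TPM, so Psme1 was 1.3-fold and 1.4-fold over Psme3. Psmf1, which encodes the inhibitor PI31, stood at 39.6 and 43.9 TPM.

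For each constitutive catalytic subunit, the interferon-inducible counterpart that can take its place was set beside it. Psmb8 stood at 444 and 458 TPM, Psmb9 at 153 and 143 TPM and Psmb10 at 98.9 and 74.8 TPM. Psmb8 made up 60.9% and 66.9% of the TPM of Psmb8 and Psmb5 (63.9% ± 4.24, SD, n = 2). Psmb9 made up 19.2% and 19.9% of the TPM of Psmb9 and Psmb6 (19.6% ± 0.53), and Psmb10 made up 24.2% and 18.9% of the TPM of Psmb10 and Psmb7 (21.6% ± 3.74). The inducible gene was the higher of the pair only for Psmb5 and Psmb8, in both libraries, whereas Psmb6 was 4.21-fold and 4.02-fold over Psmb9 and Psmb7 was 3.13-fold and 4.28-fold over Psmb10. Over the 3 pairs the inducible genes summed to 695.9 and 675.6 TPM and the constitutive genes to 1239 and 1120 TPM. These values are mRNA levels and do not give the subunits in assembled particles.

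**Figure D3:**
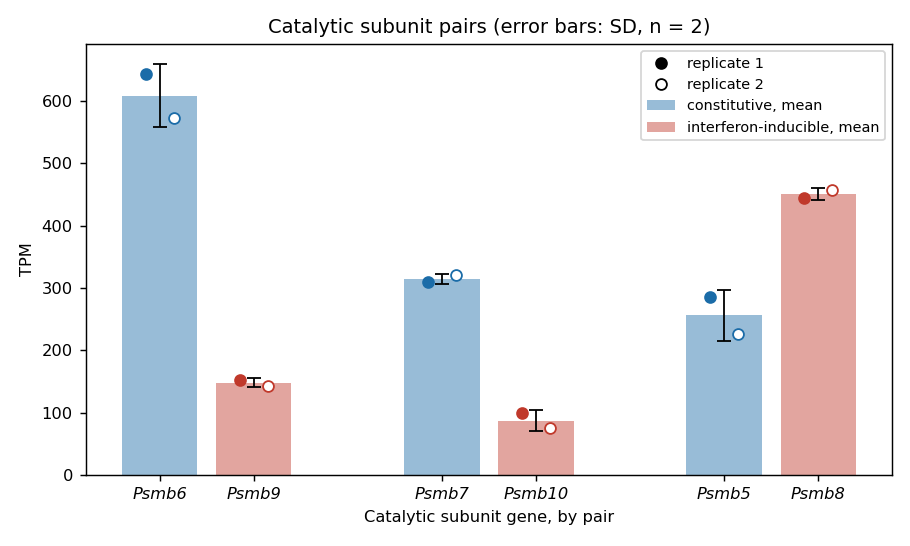
Level in TPM (y axis) of the 3 constitutive catalytic subunit genes and their interferon-inducible counterparts (x axis), as the mean of 2 libraries with SD (n = 2) and the 2 libraries as filled (replicate 1) and open (replicate 2) circles. Psmb6 and Psmb7 lie above Psmb9 and Psmb10, and Psmb8 at 444 and 458 TPM lies above Psmb5 at 285 and 227 TPM.

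The 2 tissue-restricted core genes were not expressed. Psma8, the alpha subunit of the testis proteasome, had no count in either library, and 3 counts would correspond to 0.111 TPM in replicate 1 and 0.0996 TPM in replicate 2, the upper limit for a count of 0. Psmb11, the catalytic subunit of the thymic cortex, had about 1 count in each library (0.01 TPM). Markers of the cells in which these genes act were at or near 0, since 0 of 5 germ cell markers were detected and the thymic epithelial markers Foxn1 and Krt8 were at most 0.02 TPM. The other thymic marker, Ly75, which dendritic cells also express, stood at 7.8 and 7.79 TPM. Psmc3ip, which binds DNA in meiotic recombination, stood at 87.4 and 65.1 TPM, while Dazl, Sycp3 and the other germ cell markers were each under 1 TPM. Its coding transcript Psmc3ip-201 alone stood at 39.6 and 33.7 TPM.

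The wider pathway was described from 36 listed genes outside the rule, the interferon-inducible ones aside. Of these, 34 were detected at 1 TPM or more, and Ubqln2 and Ddi1 had 0 counts. Polyubiquitin Ubb stood at 1204 and 1101 TPM, and the ubiquitin fusion gene Rps27a at 1895 and 1915 TPM. The ubiquitin-activating enzyme Uba1 stood at 157 and 161 TPM and its relative Uba6 at 12.3 and 11.7 TPM. Among shuttles that carry ubiquitinated proteins to the proteasome, Rad23b led with 204 and 255 TPM, and Ubqln1 stood at 90.01 and 92.9 TPM. Ubqln4 stood at 43.2 and 45.7 TPM, and Ddi2, the protease that activates Nfe2l1, at 27.7 and 27.5 TPM. The segregase Vcp stood at 359 and 339.6 TPM, above its cofactors Nploc4 with 75.7 and 84.8 TPM and Ufd1 with 60.2 and 61.0 TPM. In both libraries Ubb and Rps27a lay above every subunit gene, Vcp lay within the range of the 31 structural genes, and Ubqln1, Ubqln4 and Ddi2 lay below all of them.

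Each of the 8 listed factors that bind the proteasome lay below the lowest structural gene in both libraries. The deubiquitinases Uchl5 and Usp14 stood at 100.2 and 80.7 TPM and at 96.5 and 92.7 TPM, the thioredoxin-like Txnl1 at 87.7 and 77.5 TPM and the scaffold Ecpas at 52.1 and 50.3 TPM. Zfand5 followed with 44.2 and 39.0 TPM, and Akirin2, which helps bring the proteasome into the nucleus, with 33.2 and 38.5 TPM. Of the transcription factors, Nfe2l1 stood at 143 and 108 TPM, 5.19-fold and 4.51-fold over Nfe2l2 with 27.5 and 24.0 TPM. The CCAAT-binding subunits Nfya, Nfyb and Nfyc stood at 38.9 and 32.5 TPM, at 19.3 and 17.9 TPM and at 33.6 and 37.0 TPM. Genes that act on Nfe2l1 were all detected, with Sel1l at 69.7 and 62.4 TPM, Syvn1 at 63.5 and 77.8 TPM, Ogt at 43.8 and 45.9 TPM and Ngly1 at 10.4 and 8.53 TPM.

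The only difference that could be tested was between the 2 libraries, by setting each gene's 2 counts against TMM-scaled library sizes in an exact binomial test, two-sided (TMM scales a library by the bulk of its genes), which holds counting error only and compares libraries, not conditions. The other 2 members, Psma8 and Psmb11, had too few counts to be tested. Of 43 tested members, 30 passed at an adjusted p of 0.05 (69.8%), 22 lower (51.2%) and 8 higher (18.6%) in replicate 2, and 13 did not pass. Over all 15340 genes tested 30.6% passed, 15.9% lower and 14.6% higher, and among the 7050 genes averaging 500 counts or more 46.9% passed, 22.6% lower and 24.3% higher. The members were thus called lower more often than either background, while every member's log2 ratio lay between -0.50 and 0.49. Smaller ratios pass this test at higher counts, and neither background was matched to the members for counts. The structural genes alone held between 2776 and 15736 counts per library, so these shares were not compared at equal depth. The median log2 ratio of replicate 2 over replicate 1 was -0.091 for the members and 0.002 for all genes tested. Under a negative binomial exact test of edgeR, whose common dispersion was estimated over all genes from these 2 libraries as 1 group (a coefficient of variation of 19.8%), 0 members passed, 0 members reached an unadjusted p of 0.05, and 2.54% of all genes tested passed, 0.671% higher and 1.86% lower. That dispersion counts the difference between the 2 libraries as noise. The test could therefore hardly call ratios as small as those of the members, and the 0 does not show equal levels.

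By sub-complex, members called lower in replicate 2 were 4 of 7 alpha ring genes, 3 of 7 beta ring genes, 4 of 6 ATPase genes, 2 of 3 non-ATPase base genes and 3 of 8 lid genes. The lowest log2 ratios were those of Psme2b with -0.50, Psmd13 with -0.43, Psma4 with -0.42, Psmg2 and Psmc3ip with -0.41 each, and Psmc1 with -0.35. Psma4 fell from 7411 to 6108 counts although replicate 2 was the deeper library (adjusted p = 6.77e-61, exact binomial test). Higher in replicate 2 were Psmg4 with 0.49, Psme3 with 0.24, Psmd6, Psmb4 and Psmf1 with 0.20 each, Psme4 with 0.14, Psma7 with 0.10 and Psmb2 with 0.09. Both alternative activators and the inhibitor were among the 8 that were higher, and no ATPase or other base subunit gene was. The TPM ratio of Psme3 was only 0.04. Among genes averaging 500 counts or more, 24.3% were called higher and 22.6% lower. So few genes per sub-complex, compared between 2 libraries, do not give a pattern by sub-complex. Of the 34 pathway genes tested, 9 were called higher, 9 lower and 16 not.

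**Figure D4:**
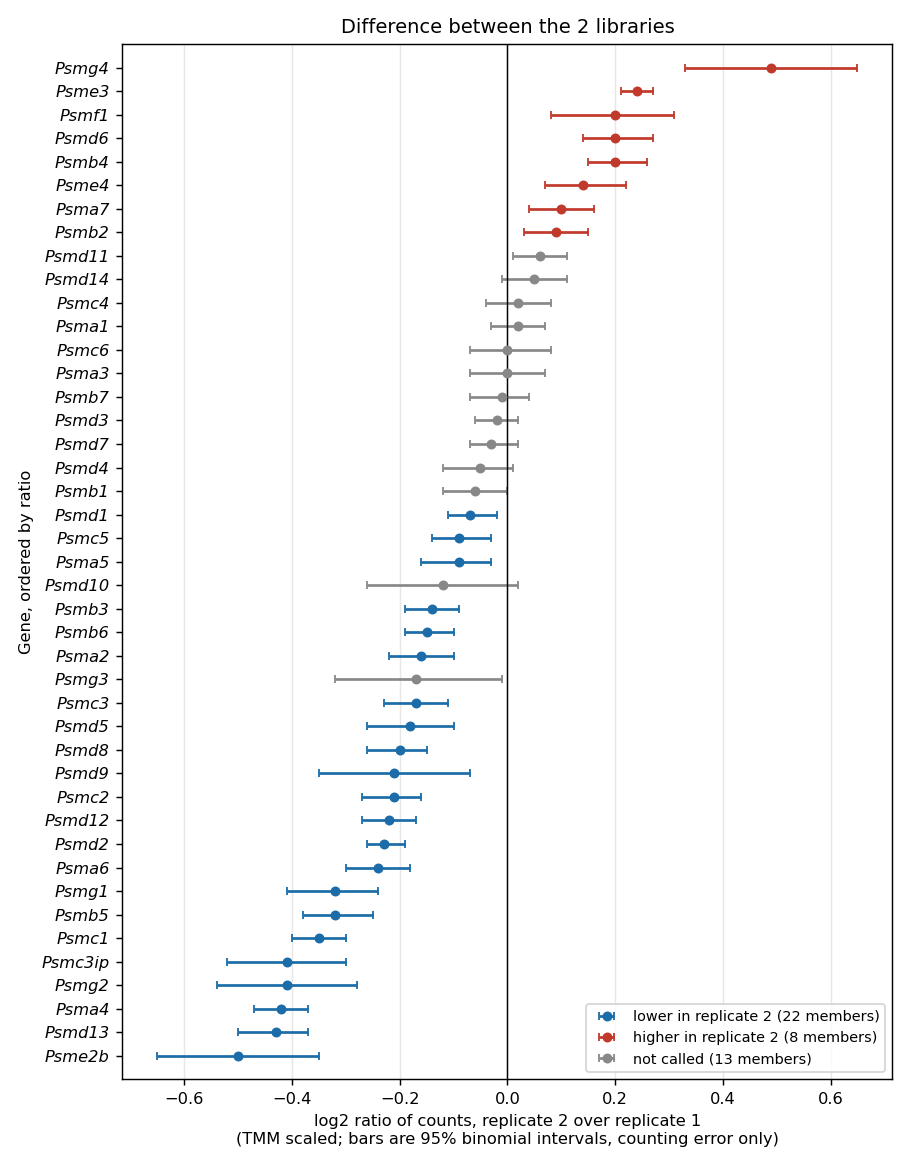
Log2 ratio of TMM-scaled counts of replicate 2 over replicate 1 (x axis) for the 43 tested members (y axis, ordered by ratio), with 95% binomial intervals that hold counting error only, coloured by the exact binomial call. All ratios lie between -0.50 (Psme2b) and 0.49 (Psmg4), with 22 members lower, 8 higher and 13 not called.

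For 6 members the ratio of TPM and the ratio of counts differed by 0.1 or more on the log2 scale. Psmc3 fell by 0.42 in TPM but by 0.17 in counts, and the TPM and count ratios of Psmd4 were -0.20 and -0.05. Psme3 rose by 0.24 in counts while its TPM ratio was 0.04, and the count and TPM ratios were 0.20 and 0.07 for Psmb4, -0.09 and 0.01 for Psma5, and -0.32 and -0.21 for Psmg1.

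Transcript tables were examined for the 43 detected members, which have 190 annotated transcripts, 8 of them a single one. The leading transcript held at least 80% of the gene's TPM in both libraries in 32 members and less in 1 or both libraries in 11. In 42 of 43 members the transcript with the most counts was annotated as protein coding in both libraries. The exception was Psma3, the alpha subunit gene at chr12:70974621-70996347. Only 16.6% of its TPM in replicate 1 and 39.2% in replicate 2 fell on protein-coding transcripts. Psma3-207, annotated as a target of nonsense-mediated decay, held 56.6% in replicate 1 and 28.5% in replicate 2, and Psma3-203, a retained-intron transcript, held 20.4% and 15.5%. The deposited posterior SD of the count was 64.2% and 43.2% of its mean for the coding Psma3-204. For the coding Psma3-208 it was 30.1% and 14.9%, and for the coding Psma3-202 6.79% and 5.34%. A processed pseudogene, Gm13835, was given 3022 and 2519 counts. Whether reads of coding Psma3 transcripts were given to it was not tested.

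The other members with a divided output kept most counts on coding transcripts. In Psmc3, the 429-base noncoding Psmc3-205 held 25.1% of TPM in replicate 1 and 1.58% in replicate 2, but 9.55% and 0.51% of counts. The coding Psmc3-202 held 27.1% and 49.2% of TPM in the same libraries. In Psmd4, the 314-base noncoding Psmd4-207 held 32.8% and 29.0% of TPM on 10.7% and 8.72% of counts. A small share of counts on these short transcripts thus stood behind a larger share of TPM, and in Psmc3 and Psmd4 coding transcripts held between 85.5% and 93.8% of counts.

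In Psmb4 the coding Psmb4-201 held 59.0% and 73.6% of TPM beside the retained-intron Psmb4-202 with 35.3% and 20.6%. In Psmb7 the coding Psmb7-201 held 89.1% and 78.8%. The lid gene Psmd13 was led by the coding Psmd13-201 with 39.1% in replicate 1 and by a transcript annotated as a decay target with 35.7% in replicate 2. Psmc4-201 held 81.3% and 77.3%, Psmd10-201 79.6% and 79.0%, and Psmg4-202 64.9% and 71.1%. For Psmd10 and Psmg4 all TPM was on coding transcripts. Psmg1-201 held 81.4% and 50.3%, with the rest on transcripts without an entry in the annotation used for names. Psmc3ip was split between the coding Psmc3ip-201 with 45.4% and 51.7% and the retained-intron Psmc3ip-202 with 46.7% and 35.2%. Leading transcripts differed between the libraries in 3 members, Psmc3ip, Psmd4 and Psmd13.

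**Figure D5:**
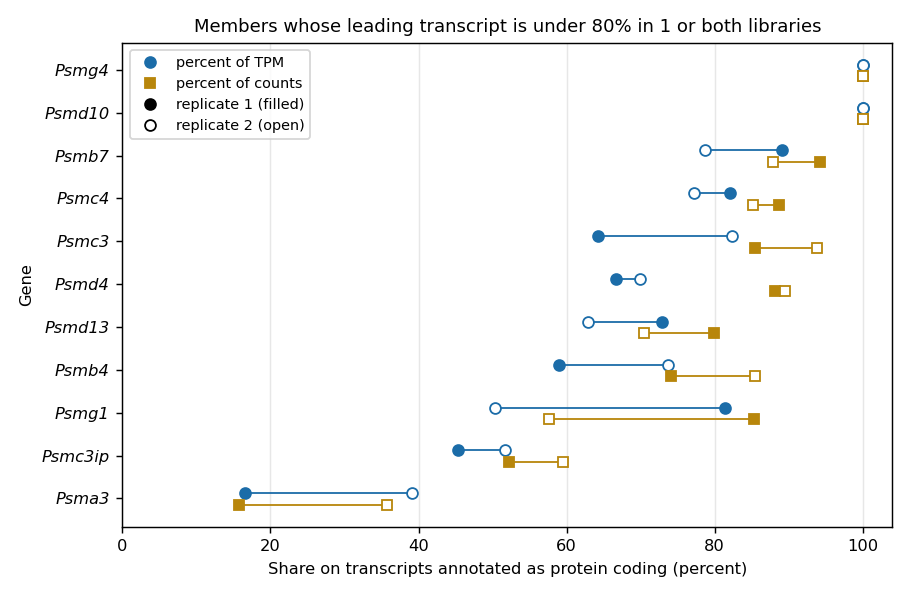
Share in percent (x axis) of a gene's TPM (circles) and counts (squares) on transcripts annotated as protein coding, in replicate 1 (filled) and replicate 2 (open), for the 11 members whose leading transcript held under 80% in 1 or both libraries (y axis). Psma3 lies lowest with 16.6% and 39.2% of TPM, and Psmd10 and Psmg4 have all TPM on coding transcripts.

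How surely reads could be given to a member was described in a pair of ways. The deposited posterior SD of the count was under 1% of its mean in both libraries for 41 of 43 members, and above that for Psma3 (2.67% and 4.95%) and Psme2b (8.54% and 11.8%). Of the 36-base words of each member's annotated transcripts, under 80% occurred in no other annotated gene for 7 members, and under 50% for Psma5, Psmb5 and Psme2b. The processed pseudogenes that share words with Psma5, Gm8394 and Gm12989, held 66.8 and 34.0 counts and 54.9 and 8.38 counts, against 3634 and 3751 for Psma5. Those 2 pseudogenes thus held few counts beside Psma5. Psmb5 shares 56% of its words with the processed pseudogene Gm3375, which has no row in the tables used here, so no count can be set beside the 3882 and 3431 counts of Psmb5.

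A pseudogene of Psma3 was given a level of the same order. The processed pseudogene Gm13835 (chr6:31141979-31142663) was given 286 and 214 TPM from 3022 and 2519 counts. It shares 16% of the 4063 words of 36 bases pooled over all annotated transcripts of Psma3. This is not a share of the pseudogene's own words, which were not counted, so it does not show that the overlap is small. Psma3 itself had 3076 and 3378 counts, so by TPM it was 0.986-fold of the pseudogene in replicate 1 and 1.24-fold over it in replicate 2. Summed, the pair reached 568 and 481.3 TPM, which would place it above all alpha ring genes. Psma3 alone did not differ between the libraries in the exact binomial test (log2 ratio 0.00, adjusted p = 1.00), whereas the summed counts were lower in replicate 2 (log2 ratio -0.19, adjusted p = 3.38e-11, exact binomial test). Psma3 alone and the pair therefore give different levels and different calls, and the division of reads between them was not tested.

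Psme2b shares 74.4% of its 36-base words with Psme2, and 24.2% occur in no other gene. It was given 64.3 and 45 TPM, and Psme2 stood 7.96-fold and 12.5-fold over it. The fall of Psme2b in replicate 2 rests on reads that the files split between these near copies. Psme2 also had fewer scaled counts in replicate 2 (5951 and 5693 counts, log2 ratio -0.20), although its TPM was higher there. The summed counts of the pair had a log2 ratio of -0.23, and the division of reads between them was not tested.

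The members lie on 16 chromosomes. Of the 45, 10 (22.2%) lie on chromosome 11, against 7.6% of protein-coding genes and 8.8% of detected ones, among them Psmb3, Psmb6, Psmc5, Psmd3, Psmd11, Psmd12, Psme3 and Psme4 with Psmc3ip and Psme2b. A protein-coding neighbour on the opposite strand, read away from the member and starting within 1000 bases of it, was found for 7 members (15.6%). The shares were 6.8% of protein-coding genes and 11.6% of detected ones. Noncoding neighbours and pairs whose starts overlap were not counted. The closest pair was Psmc2 and Dnajc2, 32 bases apart, with Dnajc2 at 208 and 176 TPM against 179.7 and 153 TPM for Psmc2. Psmc5 stood 75 bases from Ftsj3, which was at 276 and 220.0 TPM and thus near the level of Psmc5. At the other pairs the levels differed: Psma7 lay 76 bases from Ss18l1 with 1.32 and 1.57 TPM, Psmb1 137 bases from Tbp with 33.0 and 39.0 TPM, and Psma2 75 bases from Mrpl32 with 106 and 114 TPM. Psmd10 lay 179 bases from Atg4a with 13.9 and 12.6 TPM, and Psmg2 lay 263 bases from Cep76 with 10.6 and 9.87 TPM. A close shared start thus went with similar levels at some members and with very different levels at others.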

How the data were processed

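Members and gene lists were chosen with earlier results of these data known. Per the file headers, each library has a gene table and a transcript table, and the deposited notes name mm10 with GENCODE M4. Neither the aligner nor the quantification tool is given in the sources used here. Expected counts, as deposited, are the authors' estimated read counts per gene, which need not be whole because reads that match several genes are split. The deposited TPM and FPKM values were scaled by the authors to transcript length and library depth. The transcript tables hold, as deposited, what percent of its gene each transcript makes up. The deposited posterior values give a second estimate of TPM and count, and the posterior SD and interval bounds, held as score columns in the deposited tables, describe the doubt in read assignment.

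Gene names, types and coordinates came from GENCODE M21 on GRCm38 by Ensembl identifier, and 42462 of 43346 entries (98.0%) matched. A further 26345 entries without a gene identifier, spike-ins included, held 0.0426% and 0.0539% of the counts and stayed out. Expected counts were rounded, and 15340 genes with at least 10 counts summed were compared between the libraries by an exact binomial test, two-sided, on TMM library sizes (edgeR 4.0.16, R 4.3.3) with Benjamini-Hochberg adjustment at 0.05, the log2 ratio with a pseudocount of 0.5. The test was checked on simulated counts that held counting error only. The check therefore does not bear on calls that arise from other variation between the libraries. Detection was 1 TPM in both libraries. Values are given per library or as mean ± SD over n = 2. Intervals and floors (3 counts for a gene at 0) cover counting error only, since they hold no variation between replicates. PCR copies of 1 molecule cannot be told apart here, so even the counting error may be understated.

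The naming rule gives every member, up to 6 of the highest genes per pathway list with those under 1 TPM, and transcripts of members whose leading transcript is under 80%. Alternatives were DESeq2 1.42.0 size factors, library totals, posterior means, other thresholds, no filter, a negative binomial test and each library alone. Adding Gm13835 to Psma3 was chosen after seeing the data. Paaf1 and the protein sequences of the members were not analysed here, and a few pathway list genes are not reported here by name.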

Additional observations from a re-analysis of the deposited data

How the results depend on the processing

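No paired analysis was possible because both libraries belong to 1 group. With 2 libraries, 1 a side, the test between them has no residual degrees of freedom, so leaving 1 out gives levels and no test. The detected members numbered 43 under each of the thresholds of 0.5 TPM, 5 TPM and 1 FPKM, in posterior mean TPM and in each library alone. The members called higher and lower in replicate 2 numbered 8 and 22 with DESeq2 size factors, without a filter and in posterior mean counts, in each case the same 30 genes, and 7 and 23 with library totals, which lost Psmb2 and gained Psmb1. Both counts fell to 0 in the negative binomial exact test, where each member had an adjusted p of 1. Its dispersion counts the difference between the libraries as noise, so this 0 does not show that the calls were wrong. With Gm13835 added to Psma3 they were 8 and 23.

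Median levels of the ATPases and the other base genes moved by less than the SD between the libraries (20.6 and 25 TPM) when TPM was rescaled or posterior means were used. The values that moved by more follow. With TPM rescaled over non-mitochondrial Ensembl entries, the mean of the library medians was 308.4 TPM for the alpha ring, 337.3 for the beta ring, 209 for the lid, 71.75 for the core chaperones and 39.06 for the base chaperones. In posterior mean TPM it was 270.9, 295.9, 184.1 and 63.06 for the first 4 of these. With Gm13835 added to Psma3 the mean of the library medians was 312.2 TPM for the alpha ring, beside 314.6 for the beta ring. The lead of the beta ring over the alpha ring is therefore not secure. By expected counts, uncorrected for length, Psmb8 made up 70.07% of Psmb8 and Psmb5, and Psmb9 made up 21.44% of Psmb9 and Psmb6. From either library alone, the medians ranged from 287.6 to 287.8 TPM for the alpha ring, 309.1 to 320.1 for the beta ring, 204.7 to 233.8 for the ATPases, 243.4 to 278.9 for the other base genes and 191.1 to 198.8 for the lid. They ranged from 65.05 to 68.78 for the core chaperones and 34.77 to 38.16 for the base chaperones. Members with a leading transcript under 80% numbered 11, and 12 by posterior means.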
